A study of Homo sapiens with 10 samples.

Results

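The 48 genes described here encode interferon-stimulated effectors, sensors of foreign nucleic acid, the transcription factors that carry the interferon signal and the machinery of MHC class I. They were taken from a fixed list of symbols, matched through GENCODE 29 to 48 of the 58174 gene identifiers counted, and the rule itself uses no measured value. Of these, 46 had enough reads for testing. IFITM1 and HERC5 did not, with 70 and 90 reads in all 10 libraries together.

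The libraries were made from poly(A) RNA of SNU-387, a cell line from a pleomorphic hepatocellular carcinoma. Every library came from cells stably expressing a YES transgene and treated with 100 nM dasatinib, an inhibitor of SRC-family and ABL kinases. YES is a SRC-family tyrosine kinase, and 5 libraries carried its wild-type form and 5 carried YES T348I, a change of the gatekeeper residue that limits access of such inhibitors to the kinase. The comparison asks how the transcriptome differs under the drug between wild-type and gatekeeper-mutant YES. All groups share the drug and a YES transgene, and no library without either was analysed here. Whether the stable lines were single clones is not given in the labels. The titles come in 2 styles, long (3 libraries per genotype) and short (2 per genotype), and the style was used as a batch term. The labels do not say that libraries came from separate cultures, so each p-value reflects the scatter among these libraries and no more.

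Interferons are secreted proteins that signal through paired receptors and the kinases JAK1 and TYK2, or JAK1 and JAK2. Type I and type III interferons act through a complex that contains STAT2 and IRF9 and binds the interferon-stimulated response element (ISRE), whereas interferon gamma acts through the gamma-activated site (GAS). The induced genes block viral entry, translation and RNA stability, and they raise the display of peptides on MHC class I. Tumour cells often hold a low standing level of many of these genes without added interferon.

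Short stretches of promoter sequence show a motif that many of these genes share. In RefSeq promoter windows on GRCh38.p14 (250 bases before to 50 after a gene's start), 38 of the 48 genes had an entry. An ISRE core, GAAANNGAAA on either strand, lay in 26 of the 38 (68.4%, Wilson 95% interval 52.5% to 80.9%), against 4.38% of 27305 genes in the same table. A GAS core, TTCNNNGAA, lay in 10 of the 38 (26.3%, interval 15% to 42.0%), against 9.38% of all genes. IFIT2, IFITM2, OAS2, OASL, GBP2, TRIM22, USP18, DHX58, IRF7 and NLRC5 had no entry. The 30-base stretches below, written 5′ to 3′ on the strand of the gene with every motif core in capitals, come from genes that passed the genotype test. An ISRE core on the opposite strand reads TTTCNNTTTC.
IFIT1 promoter, chr10:89392504-89392533 (+ strand): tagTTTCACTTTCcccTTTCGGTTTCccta
IFITM3 promoter, chr11:320884-320913 (- strand): gGAAAAGGAAActgttgaGAAACCGAAAct
BST2 promoter, chr19:17405741-17405770 (- strand): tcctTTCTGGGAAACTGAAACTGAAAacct
IFIH1 promoter, chr2:162318686-162318715 (- strand): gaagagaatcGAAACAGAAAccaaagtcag
PARP14 promoter, chr3:122680795-122680824 (+ strand): agttTTCCAGGAAacGAAAGCGAAAgagtc
PARP9 promoter, chr3:122564322-122564351 (- strand): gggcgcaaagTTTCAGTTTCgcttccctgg
IRF9 promoter, chr14:24161192-24161221 (+ strand): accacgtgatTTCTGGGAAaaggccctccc
B2M promoter, chr15:44711366-44711395 (+ strand): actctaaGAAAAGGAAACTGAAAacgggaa
TAPBP promoter, chr6:33314076-33314105 (- strand): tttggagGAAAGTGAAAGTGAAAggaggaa
OAS3 promoter, chr12:112938321-112938350 (+ strand): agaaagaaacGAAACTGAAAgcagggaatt
OAS3 promoter, chr12:112938452-112938481 (+ strand): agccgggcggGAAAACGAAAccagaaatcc
BST2 carries both cores overlapping in the same stretch, and in PARP14 they stand apart by a pair of bases. The PARP9 stretch is the reverse complement of the site in the DTX3L window, because these neighbouring genes are read in opposite directions from one region. A match of these letters describes the sequence and does not show binding.

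Before the genotypes are compared, some libraries need to be described. Gene counts ran from 10168307 to 16939029 per library. Wild-type long-title library 1 stood apart from wild-type long-title libraries 2 and 3: the mesenchymal marker list summed to 36940 CPM there against 8501 to 17700 CPM elsewhere. FN1 was the largest part of that sum in every library, at 26180 CPM in this one. COL1A1, COL1A2, SPARC, LUM and PDGFRB were also highest there. VIM (37.9 CPM) was below every short-title library (110.2 to 170.7 CPM). In the same library the endothelial list summed to 14.2 CPM against 3.17 to 6.79 CPM elsewhere. The leukocyte list summed to 45.5 CPM against 3.32 to 9.71 CPM, through CD14 (45.05 CPM), while CD3E was at 0 in every library. The hepatocyte markers ALB, APOA1, APOA2, TTR and HNF4A were at or near 0 in all 10 libraries, at 0.136 CPM or less. Of the other 4 on that list, SERPINA1 (4.96 to 20.5 CPM) and AFP (1.49 to 4.19 CPM) were detected well enough to be tested and did not pass the genotype test, and the whole list summed to 9.68 to 23.1 CPM. The T348I long-title libraries lay close together, where chi-square over its degrees of freedom was 1.58 to 2.04 between pairs, against 12.8 to 48.6 among the wild-type long-title libraries. Cell type markers also differed with genotype. The mesenchymal sums were 11990 to 36940 CPM in wild type and 8501 to 13130 CPM in T348I, and 3 of the 7 markers, FN1, LUM and PDGFRB, were lower in T348I. The leukocyte sums were 5.29 to 45.5 CPM and 3.32 to 6.33 CPM, with CD14, the 1 marker of 8 that was tested, lower, and the endothelial sums 5.46 to 14.2 CPM and 3.17 to 5.15 CPM, with PECAM1, the 1 of 4 that was tested, lower. The part of these markers in the results below was not tested. Results are given with and without wild-type long-title library 1.

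Across the 46 tested genes, 15 were lower and 1 was higher in T348I when an adjusted p under 0.05 was required, with edgeR and an adjustment over all 13743 genes tested. Over all genes tested, 13.3% were lower and 13.7% higher. The lower genes were IFIT1, IFIT2, IFITM3, IFI35, BST2, GBP2, TRIM22, DDX58, IFIH1, STAT2, IRF9, PARP9, PARP14, B2M and TAPBP, and the higher gene was OAS3. The median log2 fold change was -0.38 over the 46 genes and -0.03 over all genes. It was negative for 41 of the 46, against 7476 of all 13743. Without wild-type long-title library 1, 14 were lower, all of them among the 15, and OAS3 was again the 1 higher gene, while 13.3% and 14.1% of 14028 genes were lower and higher. DDX58 lost its call there. The median then moved to -0.21, and 34 of the 46 were negative, against 7542 of all 14028. When the long-title T348I libraries were added up as 1 library, 5 were lower and 1 higher, while over all genes the shares also dropped, to 3.91% lower and 6.26% higher. IFIT1, GBP2, TRIM22, STAT2, PARP14 and OAS3 passed there, and the other 10 calls ended (adjusted p 0.0527 to 0.247). Of the 15 lower genes, IFIT2, GBP2, IFIH1, STAT2, IRF9, PARP9 and PARP14 passed in the long-title libraries alone, where 3.73% of all genes were lower. GBP2, STAT2, BST2 and TRIM22 passed in the short-title libraries alone, where 4.12% were lower. GBP2, STAT2 and OAS3 held their calls in all 23 alternative analyses. Calls were lost in 9 or more of the 23 for IFITM3 (12), IFI35 (9), DDX58 (13), PARP9 (9) and B2M (10). Some genes not called over all libraries passed in some of the 23, most often OAS2 (8), DHX58 (6), OAS1 (5) and HERC6 (5). Values written with ± are log2 fold changes of T348I over wild type with their SE (5 libraries per genotype, 4 of wild type where library 1 is left out), unless another quantity is named. In bulk RNA, fewer cells expressing a gene and less RNA per cell cannot be told apart.

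**Figure D1:**
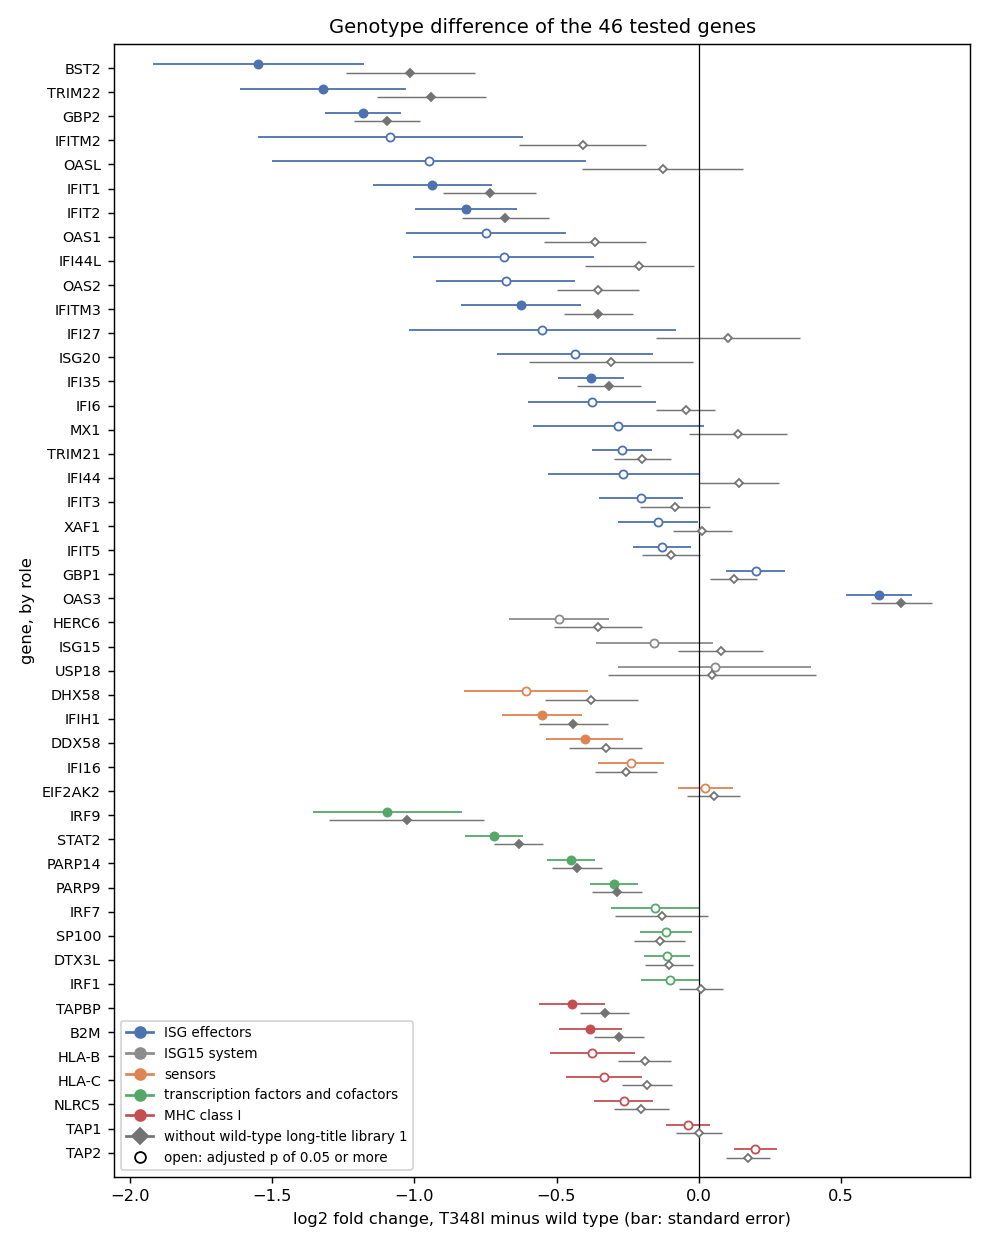
Log2 fold change of T348I minus wild type for the 46 tested genes, grouped by role, with standard errors; coloured circles use all 10 libraries, grey diamonds leave out wild-type long-title library 1, and filled symbols have an adjusted p under 0.05. Points lie to the left of 0 for 41 of 46 genes, and OAS3 is the filled point on the right.

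The separation of the groups can also be read directly from the libraries. Every wild-type library was above every T348I library for 6 genes, BST2, GBP2, TRIM22, STAT2, IRF9 and PARP14, against 4.15% of all genes. The reverse order held for 1 gene, OAS3, against 6.94% of all genes. Within both title sets separately, 9 genes were higher in every wild-type library, against 11.4% of all genes, and IFIT1, B2M and TAPBP joined the list. OAS3 and TAP2 were higher in every T348I library within both sets, against 13.8% of all genes.

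**Figure D2:**
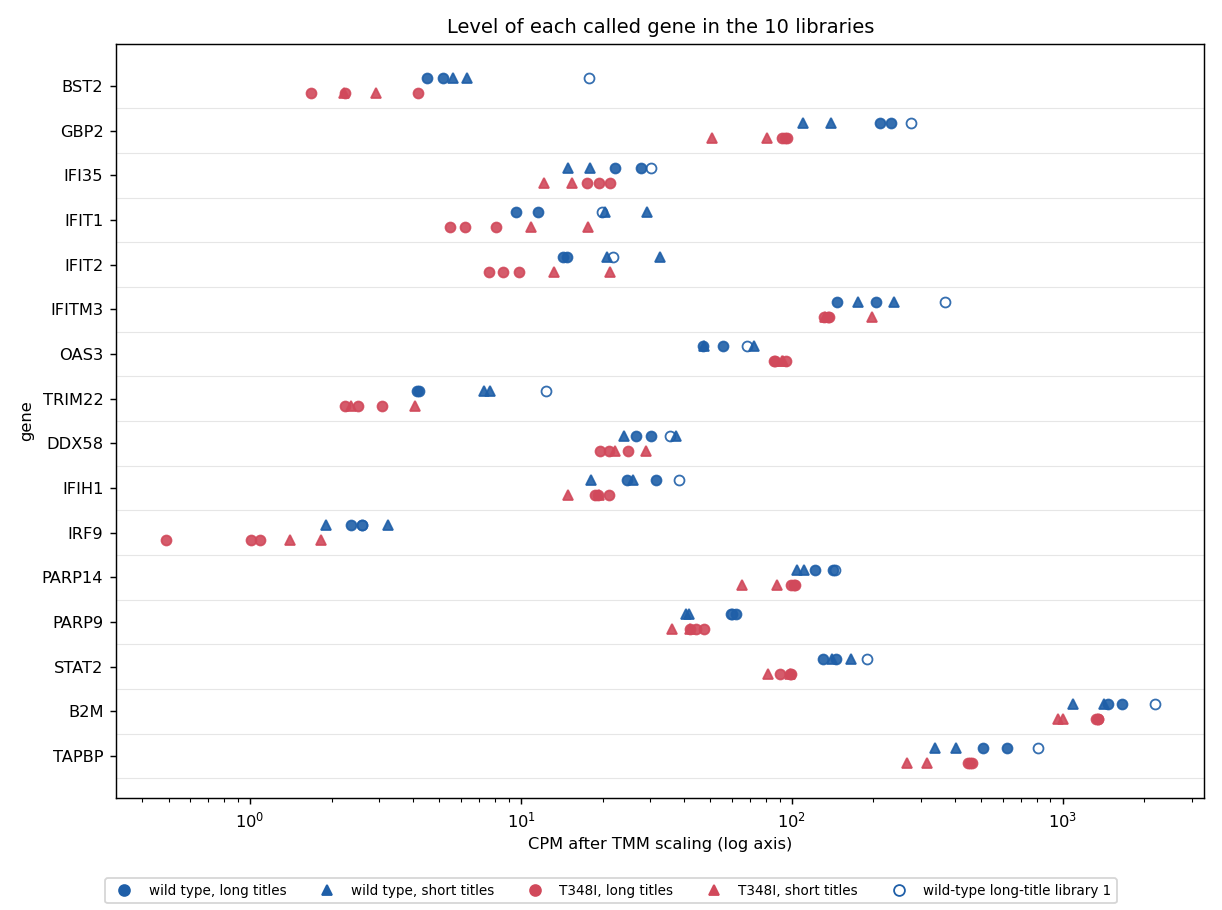
CPM after TMM scaling, on a log axis, of the 16 genes that passed the genotype test, with 1 point per library; circles are long-title and triangles short-title libraries, and the open circle is wild-type long-title library 1. Wild-type points (blue) lie to the right of T348I points (red) without overlap for BST2, GBP2, TRIM22, STAT2, IRF9 and PARP14, and to the left for OAS3.

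The signal starts with the interferons themselves. All 21 interferon ligand genes examined, the type I genes with IFNB1 and the IFNA family, IFNG and the type III genes IFNL1, IFNL2 and IFNL3, had 0 reads in every library. A count of 0 allows up to 0.177 to 0.295 CPM per library (3 reads, counting error only). Expression of a ligand was thus not detectable at this depth in either genotype.

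Of the 10 receptor and JAK-STAT genes, 2 were lower in T348I and none was higher, against 13.3% and 13.7% of all genes. In the order long-title 1, 2 and 3 and short-title 1 and 2, which is kept below, IFNAR1 was at 80.4, 71.8, 58.6, 65.8 and 76.3 CPM with wild-type YES and at 54.8, 56.7, 56.04, 59.5 and 64.8 CPM with T348I. IFNAR1 encodes a chain of the type I interferon receptor, and the genotypes overlapped. Its log2 fold change was -0.28 ± 0.088 (SE, adjusted p = 0.0337), and without wild-type long-title library 1 it was -0.21 ± 0.079 (adjusted p = 0.0585). The wild-type libraries held IFNGR1 at 264, 155, 139, 86.8 and 82.6 CPM, and the T348I libraries at 124, 121, 108, 66.6 and 72.1 CPM. IFNGR1 encodes the ligand-binding chain of the interferon gamma receptor, and its level also differed with title style, being low in the short-title libraries of both genotypes. The genotype difference was -0.51 ± 0.15 (SE, adjusted p = 0.0226), and -0.31 ± 0.071 (adjusted p = 0.00471) without that library. For IFNAR1, omitting a single library ended the call when it was long-title 1, 2 or 3 or short-title 1 of T348I, or long-title 1 or short-title 2 of wild type, with adjusted p-values of 0.0585 to 0.0918 and log2 fold changes of -0.27 to -0.21. IFNGR1 no longer passed without any 1 of long-title 1, 2 or 3 of T348I, where the adjusted p was 0.0534 to 0.0676 and the log2 fold change -0.51 to -0.46. The other receptor chains did not pass: IFNAR2 had -0.35 ± 0.14 (adjusted p = 0.0687), IFNGR2 -0.038 ± 0.067 (adjusted p = 0.708), IFNLR1 -0.056 ± 0.14 (adjusted p = 0.802) and IL10RB -0.26 ± 0.11 (adjusted p = 0.100). Nor did the kinases JAK1 (-0.27 ± 0.10, adjusted p = 0.0559), JAK2 (0.091 ± 0.091, adjusted p = 0.486) and TYK2 (-0.090 ± 0.091, adjusted p = 0.494).

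Between the receptor and its targets stand STAT2, IRF9 and their cofactors, where 4 of 8 tested genes were lower and none higher. Over all genes, 13.3% were lower and 13.7% higher. STAT2 binds IRF9 and supplies the activation domain of the ISRE-binding complex. Levels of STAT2 were 189, 129.9, 146, 165 and 141 CPM in wild type and 90.4, 99.3, 98.7, 81.9 and 98.03 CPM in T348I. The groups did not overlap. The log2 fold change was -0.72 ± 0.10 (SE, adjusted p = 0.000320), and -0.63 ± 0.087 (adjusted p = 7.24e-05) without wild-type long-title library 1, and STAT2 was also the gene of this group with the highest level per kilobase of exon, at 20.3 CPM per kb. IRF9, the DNA-binding subunit of the complex, stood at 0.487 CPM per kb. For IRF9 the wild-type libraries gave 2.58, 2.35, 2.58, 3.23 and 1.903 CPM, against 1.01, 1.09, 0.487, 1.401 and 1.83 CPM with T348I. Its groups did not overlap either, but short-title library 2 was at 1.903 CPM in wild type and at 1.83 CPM in T348I, nearly the same. On the same strand, 48.4% of its exon bases are shared with the annotated gene AL136295.5, where reads are ambiguous and not counted. The log2 fold change was -1.09 ± 0.26 (SE, adjusted p = 0.00835), and -1.03 ± 0.27 (adjusted p = 0.0105) without that library. IRF9 was measured from few reads, at 5 to 39 per library.

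PARP14 and PARP9 are ADP-ribosyltransferase family members induced by interferon, and DTX3L is the ubiquitin ligase partner of PARP9. PARP14 reached 144, 142, 122, 104 and 111 CPM in wild type, compared with 99.5, 103, 102, 65.3 and 88.02 CPM in T348I. No wild-type value fell below a T348I value, and the log2 fold change was -0.45 ± 0.085 (SE, adjusted p = 0.00209), or -0.43 ± 0.087 (adjusted p = 0.00190) without wild-type long-title library 1. With wild-type YES, PARP9 was measured at 59.4, 62.1, 60.05, 40.8 and 41.7 CPM, and with T348I at 47.4, 44.2, 41.9, 35.99 and 41.98 CPM. PARP9 was higher in the wild-type long-title libraries, whereas the short-title libraries overlapped, and its log2 fold change was -0.30 ± 0.086 (SE, adjusted p = 0.0211). Fitted alone, the long-title libraries gave -0.45 and the short-title libraries -0.065. The PARP9 call was lost when any 1 of these libraries was left out: long-title 1, 2 or 3 or short-title 1 of T348I (adjusted p 0.0526 to 0.0732, log2 fold change -0.30 to -0.25). DTX3L, which shares its promoter region and its ISRE core with PARP9, had -0.11 ± 0.081 (adjusted p = 0.328). IRF1, an early activator of MHC class I and of other interferon gamma targets, did not pass. In wild type IRF1 stood at 117, 75.5, 91.8, 53.9 and 61.7 CPM, and in T348I at 84.5, 85.04, 83.5, 55.5 and 60.5 CPM. The genotypes overlapped for IRF1 in both title sets, and its log2 fold change was -0.10 ± 0.10 (SE, adjusted p = 0.499), or 0.0083 ± 0.077 (adjusted p = 0.950) without wild-type long-title library 1, where the sign turned. IRF7, which amplifies type I interferon production, and the nuclear body protein SP100 had -0.15 ± 0.16 (adjusted p = 0.505) and -0.11 ± 0.091 (adjusted p = 0.374).

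Of the 5 sensors, 2 were lower in T348I, against 13.3% of all genes. IFIH1 encodes MDA5, a cytosolic receptor for long double-stranded RNA. IFIH1 was at 38.4, 31.4, 24.7, 18.2 and 25.9 CPM with wild-type YES and at 18.8, 21.04, 19.3, 14.97 and 19.3 CPM with T348I. Wild type was higher in the long-title set, and 1 short-title wild-type library fell among the T348I values. The log2 fold change was -0.55 ± 0.14 (SE, adjusted p = 0.0113), and -0.44 ± 0.12 (adjusted p = 0.0126) without wild-type long-title library 1. DDX58 encodes RIG-I, the receptor for RNA with a 5′ triphosphate. The wild-type libraries held DDX58 at 35.4, 30.2, 26.6, 23.99 and 37.4 CPM, and the T348I libraries at 19.6, 24.8, 21.1, 22.3 and 28.8 CPM. Its genotypes overlapped, and its log2 fold change of -0.40 ± 0.14 (SE, adjusted p = 0.0441) became -0.33 ± 0.13 (adjusted p = 0.0699) without that library. For DDX58, omitting a single library ended the call when it was long-title 1, 2 or 3 or short-title 1 of T348I, or long-title 1 or 2 or short-title 2 of wild type, with adjusted p-values of 0.0597 to 0.136 and log2 fold changes of -0.44 to -0.32. IFI16, a DNA sensor, had the highest level of the sensors per kilobase, at 55.3 CPM per kb. Levels of IFI16 were 353, 468, 359.9, 190.4 and 235 CPM in wild type and 286, 292, 302, 205 and 234 CPM in T348I. IFI16 was high in all long-title libraries and low in the short-title ones, and its genotype difference was -0.24 ± 0.11 (adjusted p = 0.143). DHX58, which encodes the regulator LGP2, had -0.61 ± 0.22 (adjusted p = 0.0535), and EIF2AK2, which encodes the translation-blocking kinase PKR, had 0.024 ± 0.10 (adjusted p = 0.879).

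Upstream of these sensors, 1 of 9 further genes of nucleic acid sensing was higher and 3 lower, against 13.7% and 13.3% of all genes. CGAS, the DNA-sensing enzyme that makes cyclic GMP-AMP, was the higher one. For CGAS the wild-type libraries gave 12.2, 25.1, 17.8, 12.4 and 12.9 CPM, against 28.8, 26.4, 27.97, 21.2 and 19.2 CPM with T348I. T348I was above wild type within each title set, with a log2 fold change of 0.63 ± 0.15 (SE, adjusted p = 0.00768), or 0.50 ± 0.11 (adjusted p = 0.00302) without wild-type long-title library 1. TMEM173, which encodes STING, the receptor for that messenger, had -0.55 ± 0.19 (adjusted p = 0.0425). The RNA sensor TLR3 had -0.55 ± 0.19 (adjusted p = 0.0465), and IRF3, the factor that first switches on interferon transcription, had -0.31 ± 0.11 (adjusted p = 0.0422). Without wild-type long-title library 1 none of these 3 lower genes passed, and their adjusted p-values were 0.0666, 0.0562 and 0.0657. Of the 10 libraries, each left out alone, 8 ended the TMEM173 call, 8 the TLR3 call and 9 the IRF3 call, at adjusted p-values of up to 0.115, 0.136 and 0.115.

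The largest group, 24 interferon-stimulated effectors, had 23 tested members, of which 7 were lower and 1 higher, against 13.3% and 13.7% of all genes. GBP2, a guanylate-binding GTPase of cell-autonomous immunity (chr1:89106132-89150456, GENCODE 29 on GRCh38), had the lowest adjusted p of the 46 tested genes. GBP2 reached 276, 233, 211, 110.1 and 139 CPM in wild type, compared with 91.7, 94.4, 95.6, 50.8 and 80.9 CPM in T348I. Wild type was higher throughout, and short-title libraries were low in both genotypes. T348I differed by a log2 fold change of -1.18 ± 0.13 (SE, adjusted p = 8.41e-05), and of -1.10 ± 0.12 (adjusted p = 9.40e-06) without wild-type long-title library 1. The nearby gene GBP1 (chr1:89052319-89065360) encodes another GTPase of the family. With wild-type YES, GBP1 was measured at 132, 208, 173, 71.8 and 77.3 CPM, and with T348I at 186, 188, 187, 91.7 and 94.1 CPM. GBP1 was also low in the short-title libraries, but its genotype difference of 0.20 ± 0.10 (SE, adjusted p = 0.167) did not pass. Leaving out wild-type long-title library 2, the highest library for GBP1, brought GBP1 and TAP2 past the threshold as higher in T348I, so that 3 genes were higher. Over all genes, 16.9% were then higher.

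BST2 encodes tetherin, which holds budding virus at the cell surface. In wild type BST2 stood at 17.8, 4.51, 5.17, 5.62 and 6.34 CPM, and in T348I at 1.68, 4.15, 2.24, 2.21 and 2.92 CPM. Every wild-type library was higher, and library 1 of the long-title wild-type set was over 2-fold above any other library. Its log2 fold change of -1.55 ± 0.37 (SE, adjusted p = 0.00849) became -1.01 ± 0.23 (adjusted p = 0.00358) without it. BST2 missed the threshold when its long-title values were fitted by themselves, at an adjusted p of 0.0847, and when those of T348I were added up, at 0.0556. TRIM22, an antiviral E3 ligase, showed the same separation. TRIM22 was at 12.4, 4.12, 4.19, 7.69 and 7.29 CPM with wild-type YES and at 2.49, 3.06, 2.24, 2.36 and 4.06 CPM with T348I. Its log2 fold change was -1.32 ± 0.29 (SE, adjusted p = 0.00550), and -0.94 ± 0.19 (adjusted p = 0.00196) without wild-type long-title library 1. Both genes were measured from few reads, at 23 to 228 reads per library for BST2 and 23 to 158 for TRIM22.

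IFIT1 and IFIT2 encode proteins that bind foreign RNA and restrain its translation, and they lie in a cluster on chromosome 10. The wild-type libraries held IFIT1 at 19.9, 11.6, 9.62, 20.4 and 29.2 CPM, and the T348I libraries at 6.197, 8.102, 5.46, 10.9 and 17.7 CPM. Levels of IFIT2 were 21.9, 14.8, 14.3, 20.8 and 32.7 CPM in wild type and 9.84, 8.58, 7.602, 13.3 and 21.3 CPM in T348I. IFIT1 was lower in every T348I library within each title style, while IFIT2 overlapped in the short-title set. Apart from wild-type long-title library 1, the short-title libraries were the higher ones of each genotype, and short-title T348I values reached the wild-type long-title range. The log2 fold changes were -0.94 ± 0.21 (SE, adjusted p = 0.00577) for IFIT1 and -0.82 ± 0.18 (SE, adjusted p = 0.00506) for IFIT2. Without wild-type long-title library 1 they were -0.74 ± 0.16 (adjusted p = 0.00333) and -0.68 ± 0.15 (adjusted p = 0.00391). The paralogs IFIT3 and IFIT5 had -0.20 ± 0.15 (adjusted p = 0.327) and -0.13 ± 0.10 (adjusted p = 0.370).

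IFITM3, which blocks virus fusion at endosomes, had the highest level per kilobase of the effectors, at 138.4 CPM per kb. For IFITM3 the wild-type libraries gave 367, 146, 204, 176 and 238 CPM, against 136, 132, 137, 133 and 198 CPM with T348I. The T348I long-title libraries were low and close together, and T348I short-title library 2 lay within the wild-type range. The genotype difference was -0.62 ± 0.21 (SE, adjusted p = 0.0426) on the log2 scale, and -0.35 ± 0.12 (adjusted p = 0.0403) without wild-type long-title library 1. IFITM3 no longer passed without any 1 of long-title 1, 2 or 3 or short-title 1 of T348I, or long-title 3 or short-title 2 of wild type, where the adjusted p was 0.0566 to 0.107 and the log2 fold change -0.65 to -0.58. IFI35, a cytokine-induced protein, overlapped between the genotypes. IFI35 reached 30.1, 22.2, 27.8, 14.9 and 18.01 CPM in wild type, compared with 21.3, 19.5, 17.4, 12.2 and 15.4 CPM in T348I. Its log2 fold change was -0.38 ± 0.12 (SE, adjusted p = 0.0282), and -0.31 ± 0.11 (adjusted p = 0.0465) without that library. The IFI35 call was lost when any 1 of these libraries was left out: long-title 2 or 3 or short-title 1 of T348I, or long-title 3 or short-title 2 of wild type (adjusted p 0.0614 to 0.0846, log2 fold change -0.37 to -0.33). IFITM2 had -1.08 ± 0.47 (adjusted p = 0.101), and it shares 22.7% of its exon bases with IFITM1. Reads that fit several places are not counted, so the near-identical IFITM genes, and likewise the MHC class I genes, are less certain than the rest.

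The oligoadenylate synthetases OAS1, OAS2 and OAS3 make an oligoadenylate second messenger in response to double-stranded RNA, and they lie side by side on chromosome 12 in the same orientation. OAS3 (chr12:112938352-112973249) lies between OAS1 (chr12:112906777-112933222) and OAS2 (chr12:112978395-113011723). With wild-type YES, OAS3 was measured at 68.04, 46.98, 55.7, 47.3 and 72.5 CPM, and with T348I at 85.8, 86.5, 95.2, 92.3 and 92.5 CPM. All T348I libraries were above all wild-type libraries in both title styles. The log2 fold change was 0.64 ± 0.12 (SE, adjusted p = 0.00163), and 0.71 ± 0.11 (adjusted p = 0.000161) without wild-type long-title library 1. In wild type OAS1 stood at 12.6, 4.12, 4.46, 5.38 and 8.56 CPM, and in T348I at 3.97, 3.95, 3.61, 4.06 and 5.43 CPM. OAS1 was highest in wild-type long-title library 1, and its log2 fold change was -0.75 ± 0.28 (SE, adjusted p = 0.0641), or -0.36 ± 0.18 (adjusted p = 0.142) without that library. OAS2 was at 33.5, 14.8, 14.2, 11.5 and 20.04 CPM with wild-type YES and at 9.97, 11.4, 10.9, 11.7 and 14.6 CPM with T348I. OAS2 had -0.68 ± 0.25 (adjusted p = 0.0557). The ratio of OAS3 to OAS1, both as CPM per kb of exon, was 3.24 to 7.49 in wild-type libraries and 10.2 to 15.8 in T348I libraries. This ratio was chosen after the values were seen, and it carries no test.

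**Figure D3:**
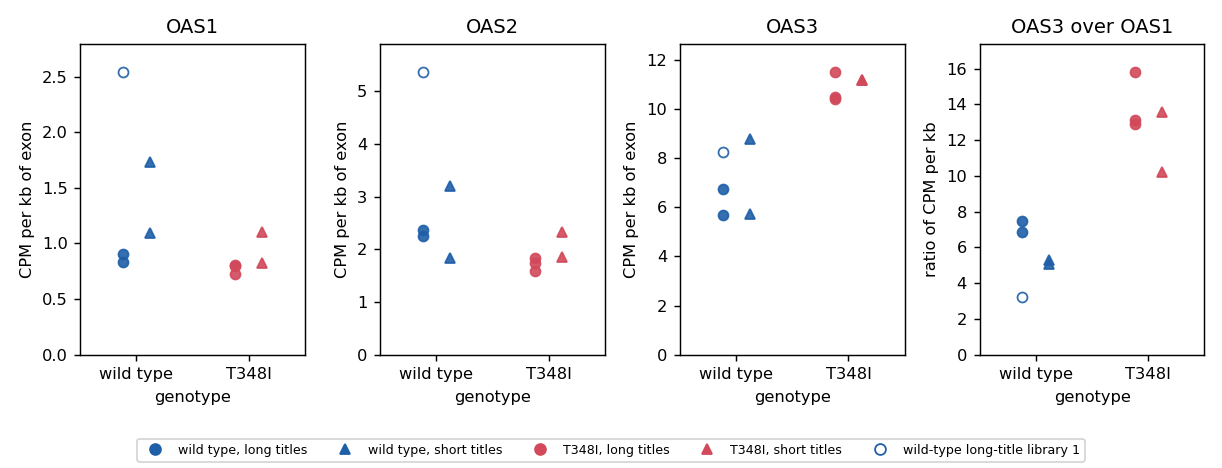
Levels of OAS1, OAS2 and OAS3 as CPM per kilobase of exon and the OAS3 to OAS1 ratio in each library, by genotype; circles are long-title and triangles short-title libraries, and the open circle is wild-type long-title library 1. OAS3 is higher in every T348I library, while OAS1 and OAS2 are highest in wild-type long-title library 1.

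For 4 further effectors, MX1, IFI27, IFI44 and XAF1, the direction itself depended on wild-type long-title library 1. MX1 encodes a GTPase that blocks viral nucleocapsids. The wild-type libraries held MX1 at 16.97, 5.98, 6.15, 5.38 and 10.7 CPM, and the T348I libraries at 6.74, 5.58, 6.14, 8.999 and 10.3 CPM. Its log2 fold change of -0.28 ± 0.30 (SE, adjusted p = 0.514) turned to 0.14 ± 0.17 (adjusted p = 0.584) without that library. Levels of IFI27 were 4.61, 0.686, 0.446, 7.94 and 4.12 CPM in wild type and 1.01, 0.885, 0.682, 6.42 and 5.15 CPM in T348I. For IFI27, a mitochondrial interferon-induced protein, the short-title libraries and wild-type long-title library 1 were the high ones, and -0.55 ± 0.47 (adjusted p = 0.410) turned to 0.10 ± 0.25 (adjusted p = 0.796). For IFI44 the wild-type libraries gave 37.6, 12.3, 10.5, 28.8 and 28.99 CPM, against 16.4, 16.8, 16.4, 21.5 and 28.1 CPM with T348I. IFI44 turned from -0.27 ± 0.27 (adjusted p = 0.487) to 0.14 ± 0.14 (adjusted p = 0.486). XAF1 reached 52.6, 30.01, 30.8, 50.5 and 39.96 CPM in wild type, compared with 35.5, 35.1, 36.2, 36.4 and 41.1 CPM in T348I. XAF1, a pro-apoptotic factor, turned from -0.14 ± 0.14 (adjusted p = 0.475) to 0.013 ± 0.10 (adjusted p = 0.942). None of these values passed the threshold in either analysis. The other effectors that did not pass, OASL, ISG20, IFI6, IFI44L and TRIM21, had negative log2 fold changes between -0.95 (OASL) and -0.27 (TRIM21).

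The ISG15 system, which attaches a ubiquitin-like protein to targets, had 3 tested members and none passed. With wild-type YES, ISG15 was measured at 21.3, 10, 11.3, 14.6 and 20.9 CPM, and with T348I at 13.1, 13.5, 8.38, 15.9 and 20.1 CPM. ISG15, the modifier itself and the most abundant of the group per kilobase (15.8 CPM per kb), overlapped between genotypes. Its log2 fold change of -0.16 ± 0.21 (SE, adjusted p = 0.607) turned to 0.077 ± 0.15 (adjusted p = 0.736) without wild-type long-title library 1. USP18, the protease that removes ISG15, was measured at 3 to 20 reads per library and had 0.056 ± 0.34 (adjusted p = 0.919), and HERC6 had -0.49 ± 0.18 (adjusted p = 0.0543). UBE2L6, the conjugating enzyme of the system and not among the 48 genes, was lower in T348I, at -0.53 ± 0.16 (adjusted p = 0.0231).

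Among the 7 MHC class I genes, B2M and TAPBP were lower in T348I and none was higher, against 13.3% and 13.7% of all genes. B2M encodes the light chain that every class I molecule needs at the surface. In wild type B2M stood at 2189, 1660, 1470, 1414 and 1095 CPM, and in T348I at 1353, 1344, 1330, 963 and 1004 CPM. T348I was lower within each title style, and the short-title libraries were lower in both genotypes. The difference was -0.38 ± 0.11 (SE, adjusted p = 0.0222) on the log2 scale, and -0.28 ± 0.087 (adjusted p = 0.0246) without wild-type long-title library 1. For B2M, omitting a single library ended the call when it was long-title 1, 2 or 3 or short-title 1 of T348I, or short-title 1 of wild type, with adjusted p-values of 0.0514 to 0.0601 and log2 fold changes of -0.38 to -0.33. TAPBP encodes tapasin, which holds empty class I molecules at the peptide transporter. TAPBP was at 810, 507, 622, 338 and 403 CPM with wild-type YES and at 446, 454, 461, 267 and 315 CPM with T348I. The order of the groups was the same as for B2M, with -0.45 ± 0.12 (SE, adjusted p = 0.0128), and -0.33 ± 0.085 (adjusted p = 0.00864) without that library. The heavy chain gene HLA-B had the highest level per kilobase of all 48 genes, at 280.5 CPM per kb. The wild-type libraries held HLA-B at 1671, 798, 1119, 655 and 622 CPM, and the T348I libraries at 865, 883, 884, 551 and 513 CPM. Wild-type long-title library 1 was the highest, the genotypes overlapped, and HLA-B had -0.37 ± 0.15 (adjusted p = 0.0816), or -0.19 ± 0.092 (adjusted p = 0.138) without it. HLA-C had -0.33 ± 0.13 (adjusted p = 0.0817).

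TAP1 and TAP2 form the transporter that carries peptides into the endoplasmic reticulum. Levels of TAP1 were 112, 85.8, 106, 75.8 and 74.2 CPM in wild type and 102, 103, 98.9, 66.9 and 73.5 CPM in T348I. For TAP2 the wild-type libraries gave 41.3, 48.1, 45.2, 28.6 and 27.4 CPM, against 48.7, 49.5, 51.9, 36.1 and 31.3 CPM with T348I. TAP1 overlapped between the genotypes, and its log2 fold change of -0.037 ± 0.078 (SE, adjusted p = 0.757) was 0.00014 ± 0.080 (adjusted p = 0.999) without wild-type long-title library 1. TAP2 was higher in T348I within each title style and had 0.20 ± 0.076 (adjusted p = 0.0670), with 32.3% of its exon bases shared with the annotated gene AL669918.1. NLRC5, the transactivator of class I genes, had -0.26 ± 0.10 (adjusted p = 0.0775). Of 18 further class I pathway genes, 3 were lower and none higher, a share near the 13.3% of all genes that were lower. These were the non-classical heavy chain genes HLA-E (-0.34 ± 0.084, adjusted p = 0.00983), HLA-F (-0.72 ± 0.14, adjusted p = 0.00257) and HLA-G (-1.67 ± 0.39, adjusted p = 0.00709). HLA-G was measured from few reads, at 2 to 36 per library. In the short-title libraries alone HLA-E and HLA-G did not pass (adjusted p 0.218 and 0.186). In the long-title libraries alone HLA-E and HLA-F did not (adjusted p 0.0669 and 0.0541). The immunoproteasome genes PSMB8 and PSMB9 had -0.11 ± 0.086 (adjusted p = 0.389) and -0.12 ± 0.12 (adjusted p = 0.482). PSMB10, of the same group, had -0.53 ± 0.20 (adjusted p = 0.0640). Fitted alone, the long-title libraries gave PSMB10 -0.88 (adjusted p = 0.0362) and the short-title libraries 0.032 (adjusted p = 0.957). Of 7 tested MHC class II genes, which report on interferon gamma, HLA-DMA alone was lower (-0.83 ± 0.22, adjusted p = 0.0141), against 13.3% of all genes.

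Over all 94 further pathway genes, 66 were tested, 1 was higher and 13 were lower in T348I, against 13.7% and 13.3% of all genes. Their median log2 fold change was -0.22, against -0.03 over all genes. Without wild-type long-title library 1, 2 were higher and 9 lower, against 14.1% and 13.3% of all genes. The median was then -0.13, against -0.03 over all genes. Beside those already named, TNFSF10, which encodes the death ligand TRAIL, was lower (-0.999 ± 0.18, adjusted p = 0.00159), as was the phosphatase gene PTPN6 (-0.58 ± 0.17, adjusted p = 0.0221). PTPN6 no longer passed without any 1 of long-title 1 or short-title 1 of T348I, or short-title 2 of wild type, where the adjusted p was 0.0582 to 0.0657 and the log2 fold change -0.56 to -0.47. The UBE2L6 call was lost when any 1 of these libraries was left out: long-title 1 or 3 or short-title 1 of T348I, or short-title 2 of wild type (adjusted p 0.0563 to 0.0696, log2 fold change -0.53 to -0.48). PLSCR1, a membrane-lipid scramblase induced by interferon, became higher (0.21 ± 0.071, adjusted p = 0.0387) once wild-type long-title library 1 was left out. Several genes strongly induced by interferon in other cells were barely present: RSAD2 had 10 reads over all libraries, CXCL10 had 8 and CXCL11 had 1.

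Levels of these genes also differed with title style. In the fit that includes genotype, 7 of 46 genes were higher and 17 lower in the short-title libraries, against 21.0% and 22.1% of all genes. The higher genes were IFIT1, IFIT2, IFITM2, OASL, IFI6, IFI27 and DHX58, and IFI27 had the widest difference, a log2 fold change of 2.10 ± 0.46 (adjusted p = 0.00269). The lower genes held 6 of the 7 MHC class I genes, all except NLRC5, and 6 of the 8 transcription factors and cofactors. The log2 fold change of short-title over long-title libraries was -0.81 ± 0.16 (adjusted p = 0.00114) for HLA-B, -1.10 ± 0.11 (adjusted p = 7.71e-06) for GBP1 and -0.63 ± 0.11 (adjusted p = 0.000501) for IRF1. Without wild-type long-title library 1, 16 genes were higher and 17 lower in the short-title set. The counts over all genes rose as well, from 2881 higher and 3037 lower of 13743 to 3592 and 3456 of 14028. MX1, OAS1, IFI44, IFI44L, TRIM22 and ISG15 were among those that then became higher. With all 10 libraries, the median over the MHC class I genes was -0.62 and over the effectors 0.19, against -0.01 over all genes. Some cell type markers differed with title style too. Of the 7 mesenchymal markers, VIM (2.21), COL1A1 (1.91) and COL1A2 (1.255) were higher in the short-title libraries on the log2 scale. LUM (-0.56) was lower. FN1 (-0.46, adjusted p = 0.163), SPARC (0.32, adjusted p = 0.234) and PDGFRB (0.34, adjusted p = 0.367) did not pass. CD14 (-1.62) and SERPINA1 (-1.58) were lower, while AFP (0.0039, adjusted p = 0.992) and PECAM1 (-0.037, adjusted p = 0.929) did not pass. The hepatocyte list summed to 19.9 to 23.1 CPM in long-title and 9.68 to 11.04 CPM in short-title libraries. Their part in the differences by title style was not tested.

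**Figure D4:**
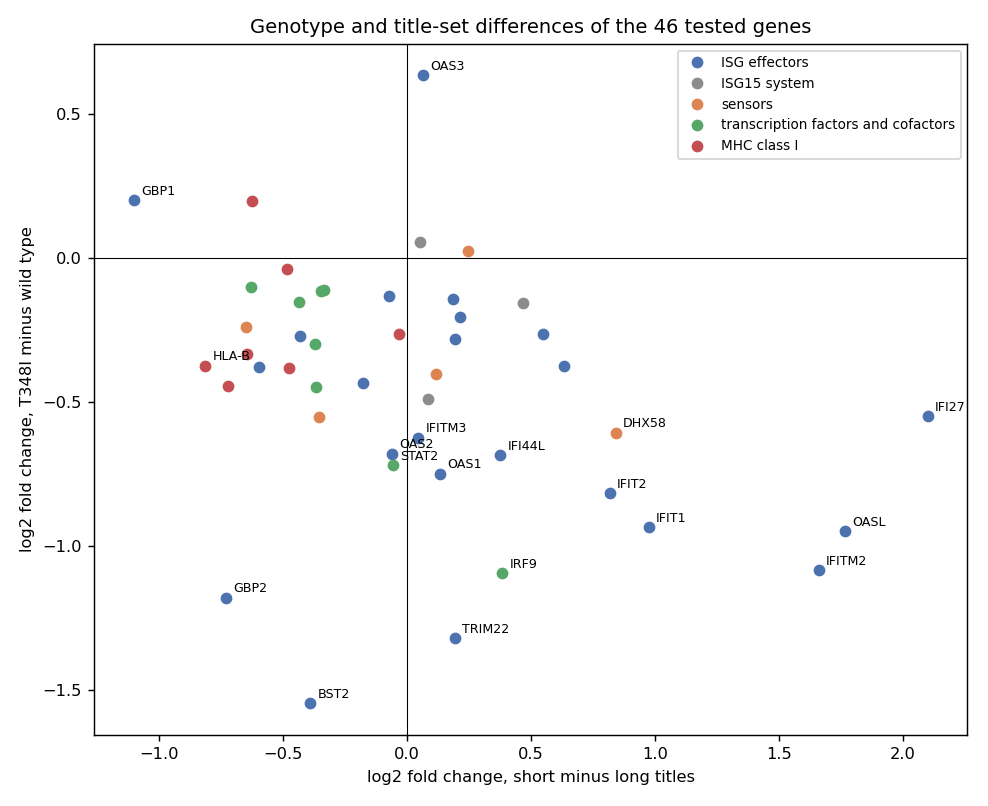
Log2 fold change of T348I minus wild type (vertical axis) against that of short-title minus long-title libraries (horizontal axis) for the 46 tested genes, coloured by role. MHC class I genes lie to the left of 0, IFI27, OASL and IFITM2 lie far to the right, and most points lie below 0 on the genotype axis.

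The genotype difference itself was not shown to depend on title style. No gene passed the interaction test in edgeR, among the 48 or among all 13743 tested, and 459 genes had an unadjusted p under 0.05, of which 2 were members, IFI16 and PARP9. DESeq2 called 2 genes with 322 at an unadjusted p under 0.05, and limma-voom called 0 with 427. No member was called by either tool, and the lowest adjusted p of a member was 0.997 or more by each of the 3. The 15 lower genes and OAS3 each had the same sign in the long-title and in the short-title libraries fitted alone.

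Wild-type long-title library 1 carried higher levels of many of these genes. Of the 46 tested genes, 13 were at least 2-fold above the mean of wild-type long-title libraries 2 and 3, against 3.58% of all genes. None was at least 2-fold below it, against 2.40%. In 28 of 46 genes it was the highest of the 10 libraries, against 14.5% of all genes. The median log2 ratio was 0.49 over the 46 genes and -0.003 over all genes. By role, 12 of the 13 were effectors, led by OASL (log2 ratio 3.11), IFI27 (2.75) and IFITM2 (2.45), and the other was the sensor gene DHX58. The MHC class I genes had a median of 0.49, with HLA-B at 0.82. GBP1 (-0.52), IFI16 (-0.22), SP100 (-0.19), TAP2 (-0.17) and PARP9 (-0.041) were the ones below 0. The same library held the high sums of mesenchymal, endothelial and CD14 signal given above. Their part in these differences was not tested.

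**Figure D5:**
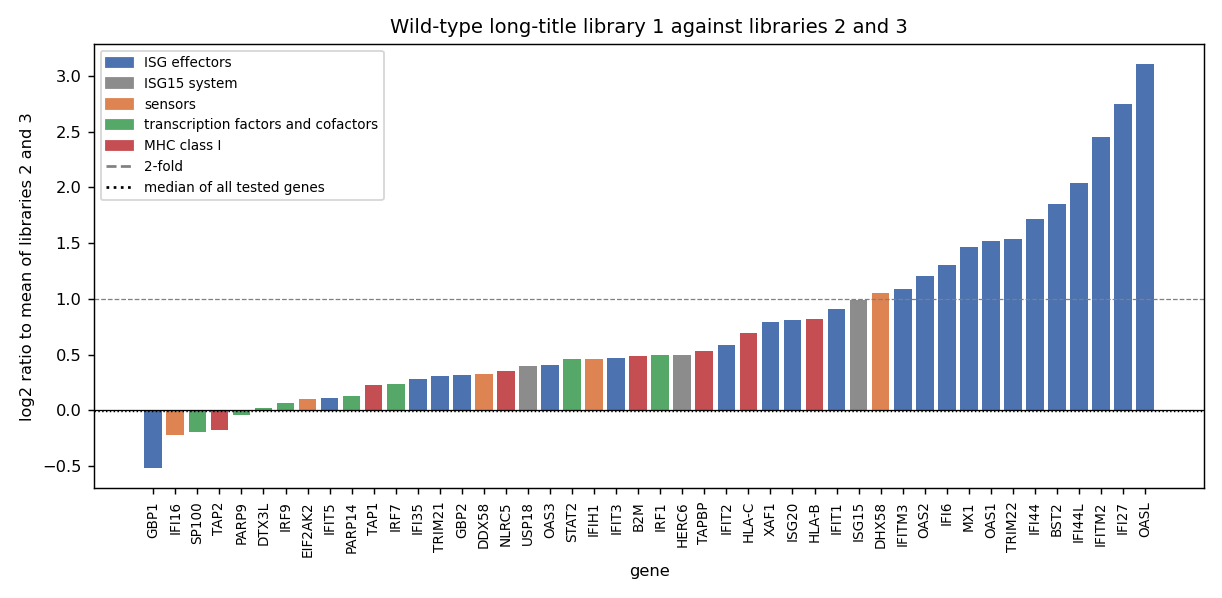
Log2 ratio of wild-type long-title library 1 to the mean of wild-type long-title libraries 2 and 3 for each tested gene, coloured by role; the dashed line marks 2-fold and the dotted line the median of all tested genes. Bars rise from left to right to OASL, IFI27 and IFITM2 as the tallest, and 5 genes lie below 0.

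The calls were also counted by promoter motif. Of 24 tested genes with an ISRE core in the window, 8 were lower and 1 higher in T348I, with a median log2 fold change of -0.29. Of 12 tested genes without one, 4 were lower, with a median of -0.38. Over all genes tested, 13.3% were lower and 13.7% higher, with a median of -0.03. OAS3, the higher gene, carries 2 ISRE cores, both shown above. Among the lower genes DDX58 and STAT2 hold neither core in this window, and IRF9 and IFI35 hold a GAS core alone.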

How the data were processed

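Poly(A) RNA of SNU-387 cells was made into stranded libraries, per the labels' protocols. Per the submitters' processing notes, CASAVA 1.8.2, Trimmomatic 0.35 and STAR 2.5.1b were used with GRCh38; the annotation release is not given in the sources used here. The deposited tables hold raw counts per gene, and the counts on the strand opposite to the read were used, since 92.2% to 94.5% of stranded reads lay there. Lines that name no gene held 20.7% to 30.0% of reads and were left out.

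Counts were fitted with edgeR 4.0.16 in R 4.3.3: filterByExpr (minimum count 10), TMM scaling and the quasi-likelihood test in a model of title style and genotype. P-values were adjusted by Benjamini-Hochberg across the 13743 genes, with a threshold of 0.05. Standard errors were calculated back from the F statistic. CPM values are TMM-scaled, and levels per kilobase use all annotated exon bases in GENCODE 29. The genotype test was checked on simulated data, drawn as independent libraries with the same dispersion per gene for both genotypes. That check does not cover the closeness of the T348I long-title libraries described above. Alternatives included DESeq2 1.42.0, limma-voom (limma 3.58.1), other filters and scalings, unstranded counts and each library left out. The 48 genes, the further lists and the tests were chosen with earlier results of these data known. Values per library are given for called genes among the 48, for those of the 48 whose call or direction differs without wild-type long-title library 1, and for the highest gene per kilobase of each role. Of the further genes, the ligands, receptors, JAK1, JAK2, TYK2, IRF3 and called genes were named by rule, except that some further genes are not reported here; other further genes were chosen after their values were seen. DESeq2 and limma-voom for the interaction were also added after seeing the data.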

Additional observations from a re-analysis of the deposited data

Results flagged for a closer look

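In groups of 5 libraries, 5 of 92 gene and genotype groups had an end library that lay apart from the others by Dixon's criterion (0.71 of the range), and chance flags about 1 in 20 groups. For 4 of them the library was T348I short-title library 2, the highest of the T348I libraries. It held IFITM3 at 197.7 CPM, OAS1 at 5.43 CPM, IFI44L at 12.2 CPM and XAF1 at 41.1 CPM. For BST2, wild-type long-title library 1 was the highest of the wild-type libraries, at 17.8 CPM.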

How the results depend on the processing

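The count of 15 lower genes became 24 with no low-count filter, 5 with no title style term, 7 in the long-title libraries alone, 5 in the short-title libraries alone and 5 after adding up the long-title T348I libraries. Over all genes the share that was lower moved as well, from 13.3% to 6.70%, 3.62%, 3.73%, 4.12% and 3.91% in that order. Leaving out each library in turn gave 10 to 21 lower and 1 to 3 higher genes. The shares over all genes moved as well, from 7.94% to 16.3% lower and from 9.62% to 16.9% higher. Leaving out wild-type long-title libraries 1 and 2 together gave 15 lower and 3 higher, against 14.2% and 16% of all genes. With replicate numbers as a replicate block, 19 were lower and 1 higher, against 13.4% and 13.9% of all genes. Deviations of same-numbered libraries correlated at -0.0253, 0.159, 0.0745 and 0.217, so the numbers were not taken to pair libraries. Among the genes described here, the interaction count of 0 became 2 with no low-count filter. The share over all genes in that setting is not given here, so whether 2 is unusual cannot be judged. In windows of 50 bases on either side of the start, 34.2% of the matched genes held an ISRE core in place of 68.4%. Over all genes the share was 1.45% in place of 4.38%. Signs turned in the long-title libraries alone for EIF2AK2 (-0.073) and IFNLR1 (0.15). They turned in the short-title libraries alone for IFIT3 (0.093), IFIT5 (0.033), MX1 (0.27), ISG15 (0.031), USP18 (-0.29), IFI16 (0.059), IRF1 (0.020) and SP100 (0.073). They turned without wild-type long-title libraries 1 and 2 for IFIT3 (0.019), IFIT5 (0.031), MX1 (0.17), IFI27 (0.092), IFI44 (0.083), ISG15 (0.040) and USP18 (-0.24). With each library left out in turn, log2 fold changes ran from -0.50 to 0.14 for MX1, -0.85 to 0.10 for IFI27, -0.42 to 0.14 for IFI44, -0.22 to 0.013 for XAF1, -0.26 to 0.077 for ISG15, -0.17 to 0.0083 for IRF1, -0.096 to 0.00014 for TAP1, -0.14 to 0.40 for USP18, -0.056 to 0.083 for EIF2AK2 and -0.18 to 0.043 for IFNLR1. None of these genes was called in the main analysis, and the cause of each change was not tested. Depth limits IFITM1, HERC5, USP18, ISG20 and IRF9 the most, which have few reads.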
